A study of Homo sapiens with 6 samples.

Results

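The IFIT and IFITM families are 2 groups of interferon-induced antiviral genes, and their transcripts were followed here in colorectal cancer cells treated with a control siRNA or with an siRNA against the long noncoding RNA GLCC1. The members were taken by symbol and are IFIT1, IFIT2, IFIT3, IFIT5, IFITM1, IFITM2 and IFITM3, which makes 7 of the 56638 gene symbols counted. IFIT proteins sit in the cytoplasm and bind viral RNA by its end. IFIT1 binds capped RNA that lacks ribose methylation, IFIT5 binds uncapped RNA with a triphosphate, and IFIT2 and IFIT3 join IFIT1 in a complex. IFITM proteins sit in membranes and hinder the fusion of enveloped viruses, IFITM1 mainly at the cell surface and IFITM2 and IFITM3 mainly in endosomes. Transcription of both families is driven through the interferon-stimulated response element, a promoter sequence bound by the factor ISGF3 and by interferon regulatory factors.

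RNA-seq was performed on 6 libraries of cultured cells, 3 titled control siRNA (a nonspecific siRNA) and 3 titled lncRNA-AF339830 siRNA, the other name of GLCC1. Both groups shared the growth medium and the transfection. The titles of each group end in siRNA1, siRNA2 and siRNA3, and these endings were read as replicate numbers. The genotype label reads siRNA1 in every library of a group, so the GLCC1 group was taken to stand for 1 siRNA in 1 cell line. The study used more than 1 GLCC1 siRNA, and replicates cannot be told apart from different siRNAs by the titles alone. The labels name this line as SW480, a colorectal adenocarcinoma line, whereas the methods of the study name DLD-1. The question of the comparison was which transcripts change when GLCC1 is knocked down. The library names in the labels run against the titles: those titled control siRNA carry AF123, and those titled lncRNA-AF339830 siRNA carry NC. Groups follow the titles here, the sign of every difference below rests on them, and the level of GLCC1 itself was not analysed, so the knockdown was not checked.

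Between 11948790 and 19042516 reads were assigned to genes per library, the smallest number in replicate 2 of the libraries labelled GLCC1 siRNA. Reads outside annotated genes made up 9.82% to 10.1% of the control libraries and 10.96% to 12.7% of the GLCC1 siRNA libraries, again with the extreme in GLCC1 replicate 2. Of 11 colon epithelial markers 7 were lower in the GLCC1 siRNA libraries, 0 higher and 4 not called (edgeR adjusted p below 0.05). Over all genes tested, 16.8% were lower and 14.9% higher. The summed level of the 11 markers (in CPM, the count scaled to a common library size with TMM factors) fell from 5681 to 6219 CPM in the controls to 2279 to 2720 CPM. KRT8 was the largest part of this sum, with group means of 3584 and 1177 CPM. VIL1, not called, had a positive estimate (log2 0.21, SE 0.08, edgeR adjusted p = 0.067). KRT20 and CEACAM5, 2 defining markers, were below 1 CPM in all 6 libraries. Some markers on the lists of T cells (PTPRC, CD2), fibroblasts (DCN, LUM) and endothelial cells (PECAM1, CDH5) were at 0 in all 6 libraries. Summed over each whole list, T cell markers reached at most 0.0686 CPM in the controls and 0.336 CPM after GLCC1 siRNA (CD3D and CD3E), and endothelial markers 1.03 and 1.40 CPM (VWF). The fibroblast sum was 11.8 to 15.0 CPM in the controls and 6.68 to 7.997 CPM after GLCC1 siRNA, nearly all of it COL1A1, which fell (log2 -0.86, SE 0.14, edgeR adjusted p = 0.00029), with COL3A1 below 0.1 CPM in each library. The summed level of 4 myeloid markers (CD14, CD68, LYZ, ITGAM) was 3.50 to 4.94 CPM in the controls and 3.74 to 6.51 CPM after GLCC1 siRNA, and that of 3 B cell markers did not exceed 0.441 CPM. The part of the epithelial and COL1A1 changes in the results below was not tested.

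The genes lie in 2 clusters. IFIT2, IFIT3, IFIT1 and IFIT5 follow each other in this order on the plus strand of chromosome 10, from chr10:91043451-91069028 for IFIT2 through chr10:91087064-91137230 for IFIT3 and chr10:91152303-91166244 for IFIT1 to chr10:91174325-91181362 for IFIT5 (hg19). IFITM2 at chr11:303655-309397 and IFITM1 at chr11:310041-315272 lie on the plus strand of chromosome 11, and IFITM3 at chr11:319676-329475 lies on the minus strand. The canonical transcript of every member has 2 exons. The IFIT transcripts shared no window of 75 bases with a transcript of another gene, whereas 11.3% of the windows of IFITM1, 5.04% of those of IFITM2 and 12.5% of those of IFITM3 occurred in a transcript of another gene, mostly another IFITM gene. In addition, 52.5% of the exonic bases of IFITM1 were overlapped by an unnamed read-through gene of GENCODE 44, and whether the annotation used for counting held this gene is not given in the sources used here. Counts of the IFITM members are therefore less certain than those of the IFIT members. Reads that overlapped 2 genes or aligned to several places were tallied apart and not counted for a gene. Per library they made up 7.30% to 7.79% (overlapping) and 10.8% to 12.4% (several places) of all tallied reads. How many of them came from IFITM genes was not examined. The study describes reads longer than the windows of 75 bases, and windows of the read length were not examined.

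The promoters carry the sequence through which interferon acts on these genes, and they are shown to make the feature common to both families visible. The interferon-stimulated response element was searched by its core GAAANNGAAA on both strands, with no other motif searched. RefSeq promoters (GRCh38.p14) were at hand for 5 of the 7 members, IFIT3 with 2 transcription starts; IFIT2 and IFITM2 had no entry. Each sequence runs from 160 bases before to 20 bases after the start in the direction of transcription, and capitals mark the matches.
IFIT1 (chr10:89392463-89392642, plus strand): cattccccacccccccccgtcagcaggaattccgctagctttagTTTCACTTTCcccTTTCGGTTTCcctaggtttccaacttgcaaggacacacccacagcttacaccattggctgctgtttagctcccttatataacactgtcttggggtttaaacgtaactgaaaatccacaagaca
IFIT3, start 1 (chr10:89327837-89328016, plus strand): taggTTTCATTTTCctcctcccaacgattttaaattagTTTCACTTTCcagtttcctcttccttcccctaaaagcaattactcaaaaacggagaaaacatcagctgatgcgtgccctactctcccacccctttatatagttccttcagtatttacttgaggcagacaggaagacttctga
IFIT3, start 2 (chr10:89332369-89332548, plus strand): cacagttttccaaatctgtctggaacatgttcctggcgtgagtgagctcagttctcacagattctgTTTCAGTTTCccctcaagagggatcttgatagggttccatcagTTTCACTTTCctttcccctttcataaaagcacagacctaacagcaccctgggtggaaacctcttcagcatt
IFIT5 (chr10:89414408-89414587, plus strand): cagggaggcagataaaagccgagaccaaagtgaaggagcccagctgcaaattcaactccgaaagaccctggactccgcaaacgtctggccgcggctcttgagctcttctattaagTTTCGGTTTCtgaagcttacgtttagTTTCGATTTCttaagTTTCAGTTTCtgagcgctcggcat
IFITM1 (chr11:313880-314059, plus strand): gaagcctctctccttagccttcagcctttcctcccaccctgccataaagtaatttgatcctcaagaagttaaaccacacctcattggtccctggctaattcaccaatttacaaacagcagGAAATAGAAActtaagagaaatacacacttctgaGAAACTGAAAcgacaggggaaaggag
IFITM3 (chr11:320841-321020, minus strand): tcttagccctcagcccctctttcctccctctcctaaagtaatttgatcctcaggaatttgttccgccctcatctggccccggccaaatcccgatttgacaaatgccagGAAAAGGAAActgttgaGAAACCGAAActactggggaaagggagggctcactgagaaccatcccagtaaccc

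Each of the 6 promoters held at least 2 matches. Over all 35116 promoters of the table, each 300 bases long, 3.57% held at least 1 match and 0.259% held at least 2. In the IFIT promoters every match lay on the other strand and appears as a pair of TTTC words in the printed sequence, whereas in IFITM1 and IFITM3 every match appears as a pair of GAAA words in the direction of transcription. The matches of IFIT1 began 116 and 103 bases before the start and those of IFIT3 156 and 122 bases before its first start and 94 and 51 bases before its second. Those of IFIT5 began closer, at 45, 19 and 4 bases before the start, those of IFITM1 at 40 and 6 bases and those of IFITM3 at 52 and 35 bases. A match is a description of the letters and does not show that a factor was bound in these cells.

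**Figure D1:**
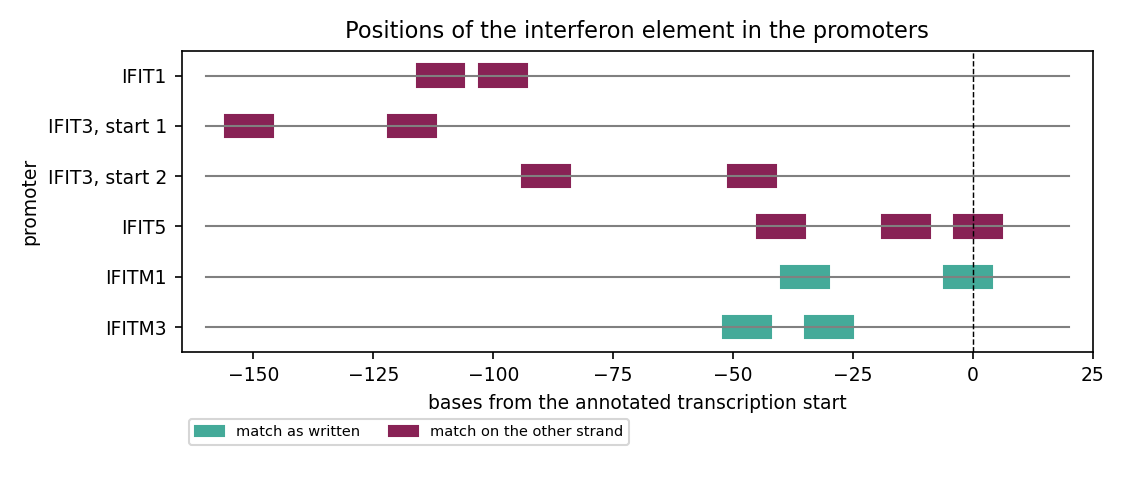
Positions of the interferon-stimulated element core in 6 promoters of 5 members. The x axis gives bases from the annotated transcription start (dashed line), each grey line is 1 promoter from 160 bases before to 20 bases after the start, and each box is 1 match, green where it reads as written and purple on the other strand. The IFITM and IFIT5 matches lie within 52 bases of the start, and those of IFIT1 and of the first IFIT3 start lie more than 90 bases before it.

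All 7 members passed the filter on low counts. Of these, 6 were higher in the libraries labelled GLCC1 siRNA, 0 were lower, and IFITM2 did not pass the test (edgeR quasi-likelihood test, adjusted p below 0.05). Over all 23074 genes tested, 31.6% passed the test in either direction, 14.9% as higher and 16.8% as lower. Scaling by library totals instead of TMM factors turned this split of the calls from 47.0% to 62.9% higher and moved the median log2 fold change of all genes from 0.03 to 0.15, and the same 6 members were higher under both. The median log2 fold change of the 7 members was 1.62. All 4 IFIT members and IFITM1 had groups that did not overlap, with every GLCC1 siRNA library above every control, which held for 22.2% of all genes tested, while 24.1% were separate in the other direction and 0 members were. In bulk RNA, a change in the number of cells that express a gene and a change in RNA per cell cannot be told apart.

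**Figure D2:**
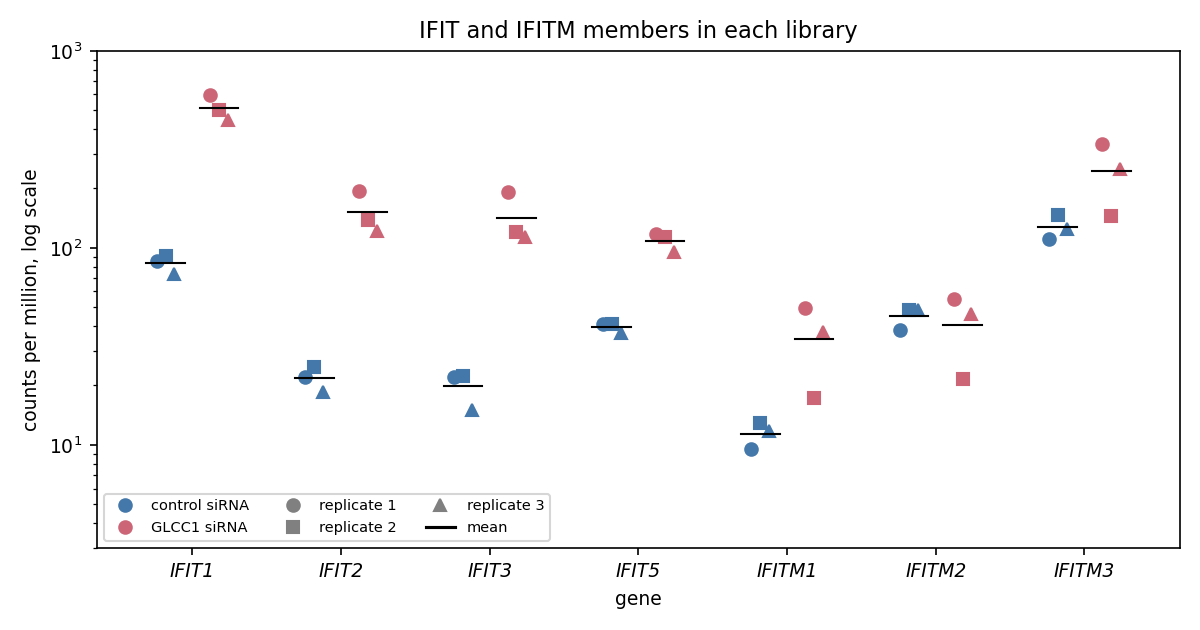
Level of each member in each library, in CPM on a log axis. Blue symbols are control siRNA and red symbols GLCC1 siRNA, the shape gives the replicate and the bar the mean of 3 libraries. The groups are separate for the 4 IFIT genes and IFITM1, and in the 3 IFITM genes GLCC1 replicate 2 (red square) lies below the other GLCC1 libraries.

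IFIT1, the sensor of incompletely capped RNA, was at 85.5, 91.0 and 73.6 CPM in control replicates 1, 2 and 3 and at 597, 498 and 444 CPM in the GLCC1 siRNA libraries in the same order. The lowest GLCC1 siRNA library was well above the highest control, and the means were 83.4 ± 8.89 and 513 ± 77.6 CPM (SD, n = 3 each). This was a 6.15-fold difference (log2 fold change 2.62, SE 0.12, edgeR adjusted p = 1.32e-08). A larger log2 fold change was found in 1.92% of the genes tested. These include genes with few counts and uncertain estimates, such as SLC16A12 (0 counts in each control, log2 4.07, SE 1.61).

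IFIT2, a partner of IFIT1 and IFIT3, was at 22.2, 24.95 and 18.6 CPM in the controls and at 195, 139 and 122 CPM after GLCC1 siRNA. IFIT3, which stabilises the IFIT1 complex, was at 22.1, 22.4 and 15.1 CPM and at 191, 121 and 114 CPM. In both genes the order of the GLCC1 siRNA libraries was that of IFIT1, with replicate 1 highest and replicate 3 lowest, and the groups did not overlap. The means of IFIT2 were 21.9 ± 3.18 and 152 ± 37.9 CPM, a 6.92-fold difference (log2 2.79, SE 0.16, edgeR adjusted p = 8.52e-08). Those of IFIT3 were 19.8 ± 4.14 and 142 ± 42.8 CPM, a 7.16-fold difference and the largest point estimate of the 7 members (log2 2.84, SE 0.20, edgeR adjusted p = 3.12e-07).

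IFIT5, which binds triphosphate RNA, rose less than the other IFIT members. Its level was 41.3, 41.0 and 37.0 CPM in the controls and 117, 114 and 94.7 CPM after GLCC1 siRNA. Both groups were tight and did not overlap. The means were 39.8 ± 2.36 and 109 ± 12.1 CPM, a 2.73-fold difference (log2 1.45, SE 0.10, edgeR adjusted p = 3.43e-07).

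IFITM1, the member found mainly at the cell surface, rose by the largest factor in its family. It was at 9.53, 12.9 and 11.7 CPM in the controls and at 49.3, 17.3 and 37.2 CPM after GLCC1 siRNA. Replicate 2 of the GLCC1 siRNA libraries was far below the other 2 but still above every control. The means were 11.4 ± 1.70 and 34.6 ± 16.1 CPM, a 3.07-fold difference (log2 1.62, SE 0.27, edgeR adjusted p = 0.000494).

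IFITM3, the endosomal restriction factor best known from influenza, was at 111, 146 and 125 CPM in the controls and at 337, 145 and 252 CPM after GLCC1 siRNA. GLCC1 replicate 2 fell inside the range of the controls, so the groups overlapped. The means were 128 ± 17.7 and 245 ± 96.2 CPM, a 1.92-fold difference (log2 0.94, SE 0.22, edgeR adjusted p = 0.00419). The calls of IFITM1 and IFITM3 were lost under a looser filter: with every gene of at least 1 count in any library tested, the adjusted p was 0.0891 for IFITM1 and 0.185 for IFITM3.

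IFITM2, the nearest relative of IFITM3, was at 38.3, 48.1 and 48.4 CPM in the controls and at 54.7, 21.5 and 46.2 CPM after GLCC1 siRNA. The groups overlapped, with the highest and the lowest of the 6 libraries both in the GLCC1 group. The means were 44.9 ± 5.79 and 40.8 ± 17.3 CPM, and the log2 fold change was -0.13 (SE 0.23, edgeR adjusted p = 0.717). Its sign turned when GLCC1 replicate 2 was left out, to 0.18 (SE 0.09, edgeR adjusted p = 0.128), and the estimates of IFITM1 and IFITM3 were then 1.93 (SE 0.13) and 1.22 (SE 0.20).

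The 2 families differed in how the GLCC1 siRNA libraries varied. The coefficient of variation over these libraries was 11.2% to 30.2% in the IFIT members and 39.3% to 46.6% in the IFITM members, while over the controls it was 5.94% to 20.9% in all 7. GLCC1 replicate 2 lay between the other 2 GLCC1 libraries for every IFIT gene and below both for every IFITM gene. Its distance below the lower of the other 2 was 1.10 on the log2 scale for IFITM1, 1.10 for IFITM2 and 0.80 for IFITM3. Among the 10378 genes whose mean level reached 10 CPM, replicate 2 was the lowest GLCC1 library in 47.0%, was lower by at least 0.5 on the log2 scale in 5.88%, and reached the distance of IFITM1 in 8 genes, itself and IFITM2 included. The other 6, chosen after their values were seen, were AL162151.3, FKBP1C, GPR153, PRODH, CHCHD5 and MOSPD3, with distances of 1.13 to 1.82. The distance of IFITM3 was reached by 47 genes. Replicate 2 was also the library with the fewest reads and the largest share of reads outside genes. Across the counted genes, it differed more from the other 2 GLCC1 libraries (chi-square per degree of freedom 16.3 and 17.1) than they did from each other (3.07). The part of these traits of replicate 2 in its IFITM values was not tested.

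**Figure D3:**
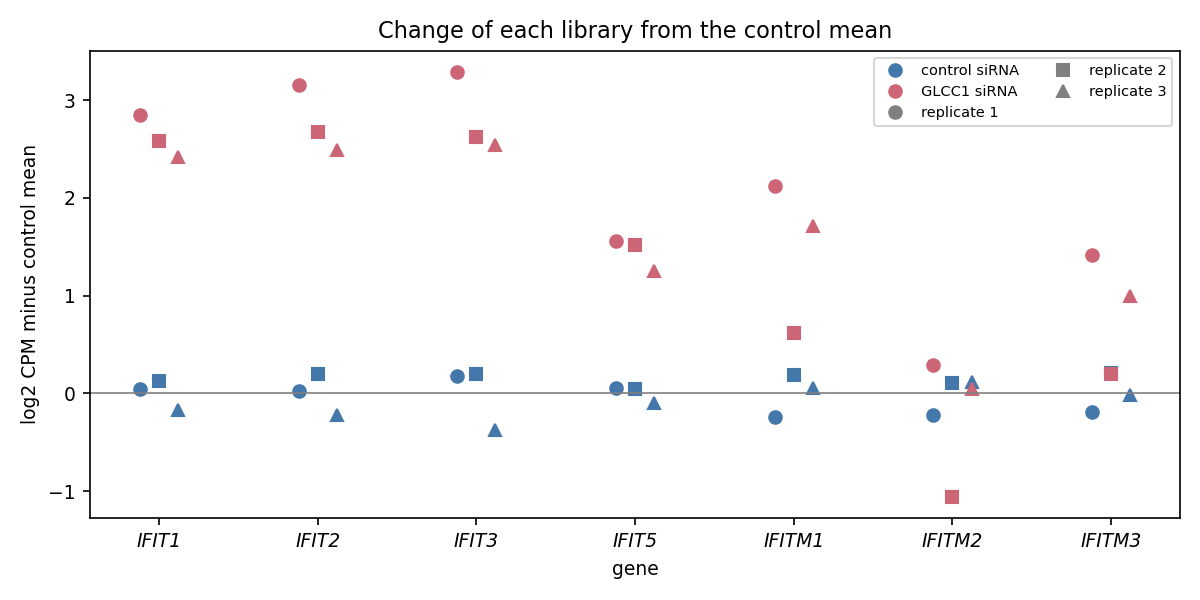
Difference of each library from the control mean for each member, as log2 CPM (prior count 1) minus the mean of the control libraries. Blue is control siRNA, red GLCC1 siRNA and the shape gives the replicate. GLCC1 replicate 2 (red square) is at 2.58 for IFIT1 and 1.52 for IFIT5 but at 0.62 for IFITM1, -1.06 for IFITM2 and 0.20 for IFITM3.

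Summed over the 4 IFIT genes the level was 171, 179 and 144 CPM in the controls and 1100, 871 and 775 CPM after GLCC1 siRNA, a 5.55-fold ratio of the means. Summed over the 3 IFITM genes it was 159, 207 and 185 CPM in the controls and 441, 184 and 336 CPM after GLCC1 siRNA, a 1.74-fold ratio of the means. The IFIT sums did not overlap between groups, and the IFITM sums did. The count of IFIT reads per IFITM read was 1.08, 0.865 and 0.780 in the controls and 2.49, 4.74 and 2.31 after GLCC1 siRNA, so that each GLCC1 siRNA library held more than 2 IFIT reads per IFITM read. This within-library ratio does not depend on scaling between libraries.

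Within each family the members did not rise by the same factor, which can be read from their shares of the family's counts in a library. IFIT5 made up 24.2 ± 1.41% of the IFIT counts in the controls and 11.98 ± 1.23% after GLCC1 siRNA (SD, n = 3 each, exact permutation test, two-sided, p = 0.1). This p is the smallest that 3 against 3 libraries allow, and it was reached by all 7 members, none of which overlapped between groups in its share. Shares of a family have a fixed total, so a lower share of 1 member raises the others, and the 7 are not separate results. How often shares separate in other groups of genes was not examined. The share of IFIT1 went from 50.6 ± 0.533% to 56.2 ± 1.70%, that of IFIT2 from 13.3 ± 0.565% to 16.5 ± 1.06% and that of IFIT3 from 11.9 ± 1.32% to 15.3 ± 1.84%. The shares of the 3 genes of the IFIT complex were thus higher and that of IFIT5 lower in every GLCC1 siRNA library than in any control.

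In the IFITM family, IFITM2 made up 24.5 ± 1.52% of the counts in the controls and 12.6 ± 1.06% after GLCC1 siRNA. The share of IFITM1 went from 6.17 ± 0.163% to 10.6 ± 0.984% and that of IFITM3 from 69.3 ± 1.61% to 76.8 ± 1.90%. In contrast to the levels, the shares of GLCC1 replicate 2 lay with those of the other GLCC1 libraries: IFITM1 was at 11.2%, 9.42% and 11.1% and IFITM2 at 12.4%, 11.7% and 13.8% in GLCC1 replicates 1, 2 and 3. Replicate 2 was thus low in the level of all 3 IFITM genes, and the mix of the 3 was near that of its group.

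**Figure D4:**
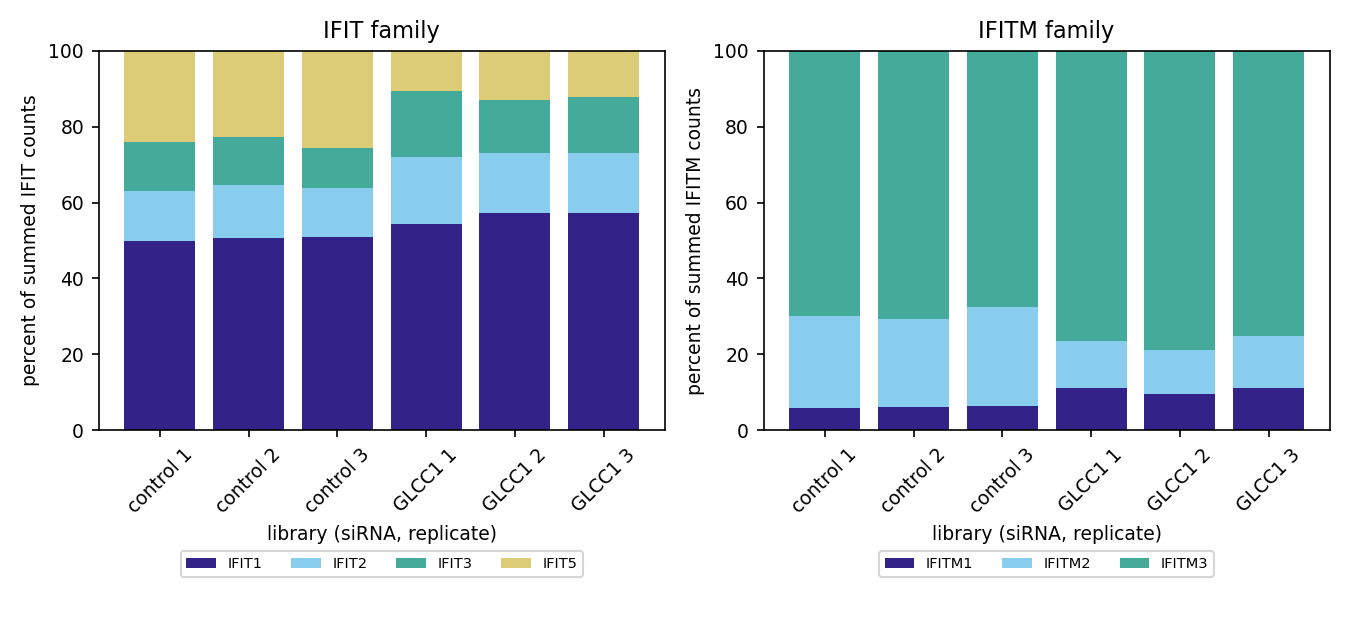
Share of each member in the summed counts of its family, in percent, for each library (control siRNA and GLCC1 siRNA, replicates 1 to 3). Every bar adds up to 100 percent. The IFIT5 segment is 24.2% of the bar on average in the controls and 11.98% after GLCC1 siRNA, and the IFITM2 segment is 24.5% and 12.6%.

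Ratios between 2 members of a family use the same counts as the shares and restate them pair by pair. Of the 9 pairs within families, 7 had ratios that did not overlap between the groups. For single genes, the levels of 22.2% were separate upward and of 24.1% downward over all genes tested. The share over pairs of genes in general was not computed. The number of IFIT1 reads per IFIT5 read was 2.07, 2.22 and 1.99 in the controls and 5.10, 4.37 and 4.69 after GLCC1 siRNA. The number of IFITM1 reads per IFITM2 read was 0.249, 0.268 and 0.241 in the controls and 0.901, 0.807 and 0.805 after GLCC1 siRNA. The IFITM2 to IFITM3 ratio fell from 0.344, 0.329 and 0.387 to 0.162, 0.148 and 0.183. Only the ratios of IFIT1 to IFIT3 (exact permutation test, two-sided, p = 0.5) and of IFIT2 to IFIT3 (p = 0.7 in the same test) overlapped among these pairs.

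Levels of different genes were compared per kilobase of the canonical transcript. In the controls IFITM3 was the highest at 209 ± 29.0 CPM per kilobase, followed by IFITM2 at 44.7 ± 5.76, IFIT1 at 19.4 ± 2.07 and IFITM1 at 17.0 ± 2.55, the last 2 overlapping in their ranges. IFIT5 at 9.87 ± 0.587, IFIT3 at 8.30 ± 1.73 and IFIT2 at 6.46 ± 0.938 CPM per kilobase followed, with IFIT3 overlapping both of its neighbours. After GLCC1 siRNA IFITM3 remained the highest at 401 ± 157, and IFIT1 came second at 119 ± 18.03 CPM per kilobase. IFIT3 at 59.4 ± 17.9, IFITM1 at 51.8 ± 24.2, IFIT2 at 44.8 ± 11.2 and IFITM2 at 40.6 ± 17.2 CPM per kilobase overlapped in their ranges, and IFIT5 had the lowest mean at 26.9 ± 3.01, inside the range of IFITM2. By these means IFITM2 passed from rank 2 to rank 6 and IFIT5 from rank 5 to rank 7, although IFIT5 rose.

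Other symbols of the families had few counts. IFITM10, a distant relative, had 25, 61 and 39 counts in the controls and 19, 12 and 23 after GLCC1 siRNA, and it fell (log2 fold change -1.20, SE 0.29, edgeR adjusted p = 0.00641). IFIT1B had 1 count in each control and 6, 3 and 2 counts after GLCC1 siRNA (edgeR adjusted p = 0.159). The pseudogene IFITM4P had 3, 3 and 5 counts in the controls and 5, 12 and 10 after GLCC1 siRNA (edgeR adjusted p = 0.116), and IFIT1P1, IFIT6P, IFITM5 and IFITM9P had at most 6 counts in any library.

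The profile across the 6 libraries that was nearest to the IFIT mean was that of HERC5, the ligase that attaches ISG15 to proteins, with a root mean square difference of 0.11 on the log2 scale over the 10371 genes compared, all with a mean level of 10 CPM or more. HERC5 was at 5.14, 5.67 and 5.00 CPM in the controls and at 33.1, 24.3 and 22.4 CPM after GLCC1 siRNA. Also among the 5 nearest were DDX60L, a helicase-like gene, at 0.18, CMPK2, a mitochondrial nucleotide kinase, at 0.20 and CLDN2, a tight junction claudin, at 0.20. Nearest to the IFITM mean was SHISA5, an endoplasmic reticulum membrane protein gene, at 0.16, with 112, 139 and 125 CPM in the controls and 259, 147 and 235 CPM after GLCC1 siRNA. SMOX, the spermine oxidase, followed at 0.19, then SLC26A1, a sulfate transporter, at 0.22, LGALS3BP, a secreted glycoprotein, at 0.22 and PTMAP4, a prothymosin pseudogene whose reads may be shared with its parent gene, at 0.22.

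By their role upstream of both families, 28 genes of sensing and interferon signalling were examined. Some carry the interferon element core in their own promoters (IFIH1 with 3 matches, IFNL1 with 2, TLR3 with 1), and others do not (MAVS and STAT2 with 0). Whether these genes changed before the members or along with them was not tested. Of these, 13 were higher after GLCC1 siRNA, 3 lower and 12 did not pass the test, with a median log2 fold change of 0.49 beside 0.03 for all genes tested, of which 14.9% were higher and 16.8% lower. Among 11 sensors and adaptors, 8 were higher and 1 lower. DDX58, which encodes the RNA sensor RIG-I, went from 57.7 ± 2.35 to 211 ± 22.4 CPM (log2 1.87, SE 0.10, edgeR adjusted p = 2.94e-08) and IFIH1, which encodes MDA5, from 28.4 ± 3.30 to 82.9 ± 6.61 CPM (log2 1.55, SE 0.11, edgeR adjusted p = 3.14e-07). DHX58, a regulator of both sensors, had the largest log2 fold change of the sensors at 2.67 (SE 0.45) but stayed below 7 CPM. MAVS, the adaptor of both sensors, fell from 72.7 ± 3.06 to 52.2 ± 5.75 CPM (log2 -0.47, SE 0.10, edgeR adjusted p = 0.00222), and TBK1 and IRF3, the kinase and the factor that act after it, did not pass the test.

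The interferon genes themselves were close to the limit of detection. IFNL1 had 3, 0 and 1 counts in the controls and 21, 1 and 8 after GLCC1 siRNA, and it was the only one of 4 ligands to pass the test (edgeR adjusted p = 0.0412), with groups that overlapped. IFNB1 had 1, 0 and 0 counts in the controls and 2 in each GLCC1 siRNA library (edgeR adjusted p = 0.214). IFNL2 and IFNL3 had at most 9 counts in any library and did not pass the test. Of 4 receptor genes, 0 were higher, IFNAR1 and IFNAR2 did not pass the test and 2 were lower, IL10RB at a log2 fold change of -0.84 (SE 0.11) and IFNLR1 at -0.45 (SE 0.11). Both encode chains of the type III interferon receptor.

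Among the kinases and factors, IRF1, an activator of interferon-induced genes, went from 17.5 ± 0.141 to 24.7 ± 6.22 CPM (log2 0.50, SE 0.15, edgeR adjusted p = 0.0230) and STAT2, a part of ISGF3, from 83.5 ± 5.02 to 115 ± 19.8 CPM (log2 0.47, SE 0.11, edgeR adjusted p = 0.00624). IRF9, the DNA-binding part of ISGF3, was at 14.9 ± 2.86 and 18.5 ± 1.52 CPM and did not pass the test (edgeR adjusted p = 0.101), nor did JAK1 and TYK2. USP18, which removes ISG15 and dampens receptor signalling, was raised from 25.7 ± 1.83 to 85.6 ± 17.1 CPM (log2 1.74, SE 0.13), and SOCS1 and SOCS3, the other negative regulators examined, did not pass the test.

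A further 17 genes have proteins linked to the action of the families and are named partners here, whether the link helps or opposes that action. Of these, 0 were higher, 8 were lower and 9 did not pass the test, with a median log2 fold change of -0.16. Over all genes tested, 14.9% were higher and 16.8% lower. On the IFIT side, CMTR1 (log2 -0.58, SE 0.09) and RNMT (log2 -0.70, SE 0.10), enzymes that methylate the cap of mRNA, fell, as did EIF3C, a subunit of initiation factor eIF3 (log2 -2.05, SE 0.14). The value of EIF3C is uncertain because the near-identical copy EIF3CL can take its reads. On the IFITM side, the tetraspanin CD9 fell from 297 ± 11.98 to 134 ± 13.8 CPM (log2 -1.15, SE 0.09, edgeR adjusted p = 7.53e-07). ZDHHC20, which palmitoylates IFITM3, fell from 88.6 ± 0.913 to 46.6 ± 11.6 CPM (log2 -0.94, SE 0.14, edgeR adjusted p = 0.000155), and AP2B1, a subunit of the endocytic adaptor, from 427 ± 16.1 to 255 ± 5.98 CPM (log2 -0.75, SE 0.08, edgeR adjusted p = 6.47e-06). CD81 and ZMPSTE24 fell by 0.44 (SE 0.11) and 0.39 (SE 0.11) on the log2 scale. When library totals were used for scaling, 1 of the 17 was higher and 7 lower, beside 4735 higher and 2797 lower of all 23074 genes tested.

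Of 18 genes tested beside the 2 clusters, 3 were higher, 5 lower and 10 did not pass the test, with a median log2 fold change of 0.04. Over both sides, the count of higher neighbours was near the share over all genes (14.9% higher, 16.8% lower). That of lower neighbours was above it with TMM scaling. By side, 3 of 7 tested beside IFIT were higher and 0 lower, and 0 of 11 tested beside IFITM were higher and 5 lower. The number called fell from 8 to 5 without control replicate 1 and to 4 without control replicate 3. The 3 that were higher lie on the IFIT side: STAMBPL1 (log2 1.08, SE 0.12), ACTA2 (log2 1.03, SE 0.31, at no more than 2.91 CPM) and KIF20B (log2 0.65, SE 0.14). LIPA, next to IFIT2, was at 72.9 ± 2.57 and 83.3 ± 8.10 CPM and did not pass the test (edgeR adjusted p = 0.139), and CH25H had 0 counts in all 6 libraries. The 5 that were lower lie on the IFITM side and were PTDSS2 (log2 -1.02, SE 0.12), PKP3, RNH1, RIC8A and PSMD13, the last 4 between -0.62 and -0.28. With scaling by library totals 5 neighbours were higher and 2 lower, beside 4735 higher and 2797 lower of all 23074 genes tested. The count of lower neighbours was then not above the share over all genes.

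**Figure D5:**
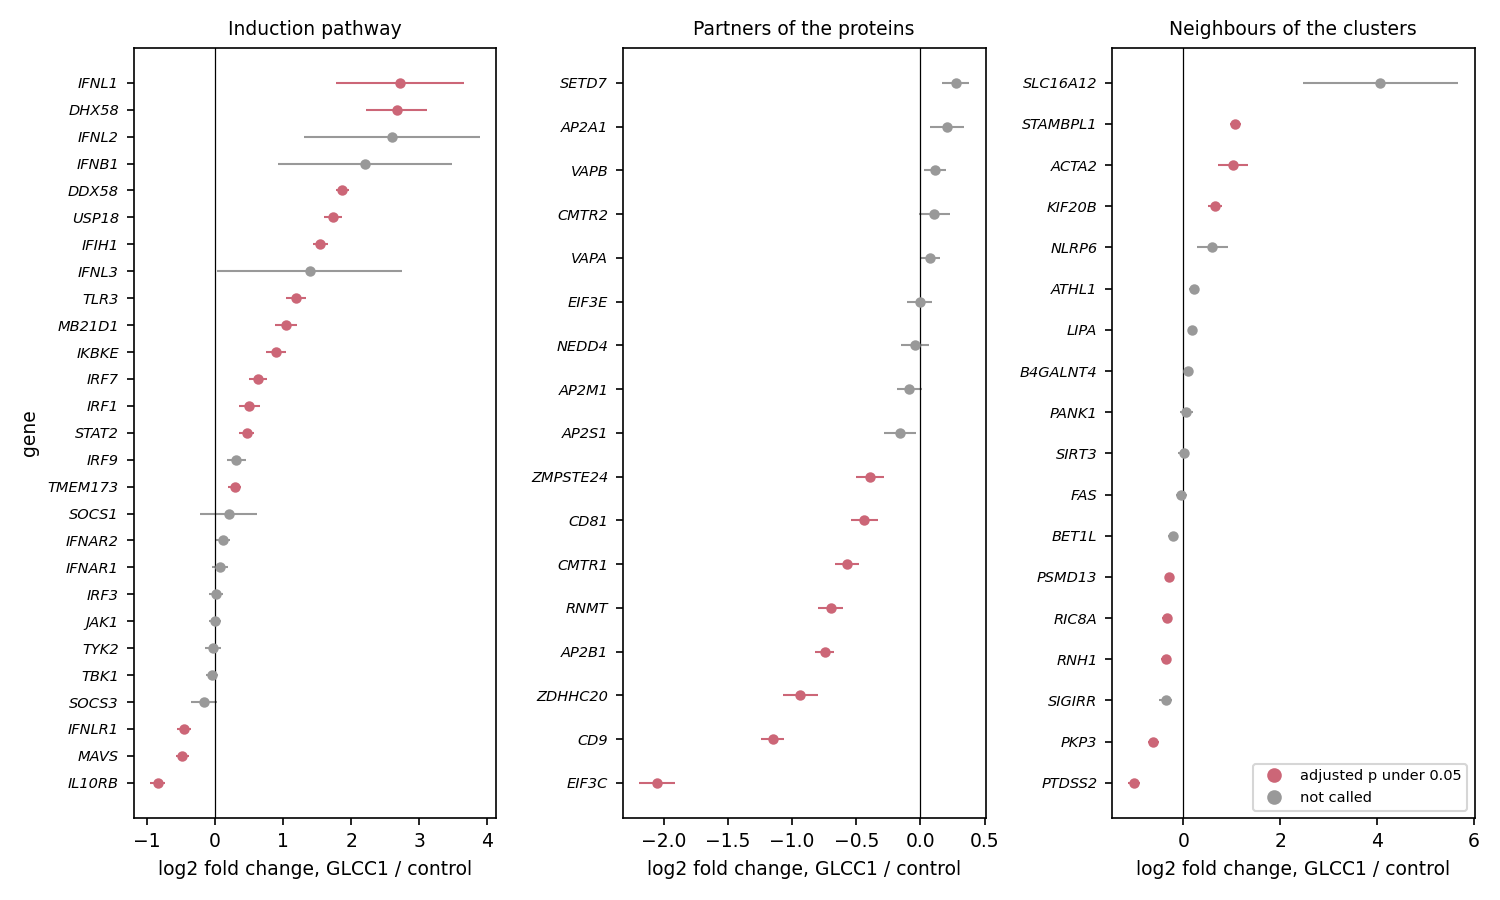
Log2 fold change (GLCC1 siRNA over control siRNA, x axis) of tested genes of the induction pathway, of the partners of the proteins and of the neighbours of the clusters. Points are edgeR estimates, bars are 1 standard error on each side, red marks an adjusted p under 0.05, and the x axes differ between the panels. The called sensors lie to the right of 0 except MAVS, the 8 called partners lie to the left of 0, and the wide bars (IFNL1, IFNL2, IFNL3, IFNB1, SLC16A12) belong to genes with few counts.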

How the data were processed

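Total RNA of colorectal cancer cells (6 libraries, 3 per group) was sequenced by the authors as paired-end reads, aligned with TopHat2 (2.0.11) to hg19 and counted with HTSeq in union mode. The deposited values are raw counts per gene symbol. Nothing in the labels says that replicates were separate transfections, so p-values measure the spread between these libraries, which may be technical. No 2 libraries of a group agreed within sampling noise.

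Counts were tested with edgeR (4.0.16, R 4.3.3) by the quasi-likelihood test (robust fit, TMM scaling, no covariate) over the 23074 genes with at least 5 counts summed over a condition, with Benjamini-Hochberg adjustment and a threshold of 0.05. CPM values use the TMM-scaled library sizes. Shares and ratios of members were tested by exact permutation over libraries. Alternatives were DESeq2 (1.42.0), its size factors, library totals, 2 other filters, the replicate number as a block and leaving out each library in turn. Gene positions and transcripts came from GENCODE 44 on hg19, promoters from RefSeq. The kit does not mark strand, and antisense reads cannot be told apart.

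The members and gene lists were chosen with earlier results of these data known. Named genes are the 7 members, other IFIT and IFITM symbols with a count, up to 4 called genes per list and direction with the largest change, every gene counted in groups of 5 or fewer, and the 5 nearest profiles per family. Genes outside this rule (KRT20, CEACAM5, the markers at 0, and further genes of the lists) were named after their values were seen. Values of some genes that the rule names are not reported here.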

Additional observations from a re-analysis of the deposited data

How the results depend on the processing

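Over 84 values of the 7 members under 12 alternatives, 80 kept direction and side of the threshold, 3 lost the call and 1 reversed. The reversed value was IFITM2 without GLCC1 replicate 2 (0.18). The number of members called was 6 in the remaining alternatives, 4 when genes with a single count were kept and 5 with the replicate block. Replicate numbers did not pair the libraries: the mean correlation of deviations from the group means was -0.12 for equal numbers and 0.06 for different numbers, and with the block 6531 genes were called instead of 7293 and IFITM3 had a log2 fold change of 0.87 (edgeR adjusted p = 0.0561). Leaving out 1 library gave 5240 to 9917 genes called, the highest without GLCC1 replicate 2, 13 to 18 called in the induction list, 7 to 11 among partners and 4 to 12 among neighbours. Neighbours called were 5 without control replicate 1 and 4 without control replicate 3, against 8 with all libraries. The log2 fold changes ranged over all alternatives from 2.51 to 2.74 for IFIT1, 2.58 to 2.94 for IFIT2, 2.57 to 2.99 for IFIT3, 1.40 to 1.57 for IFIT5, 1.28 to 1.93 for IFITM1, -0.38 to 0.18 for IFITM2 and 0.65 to 1.22 for IFITM3. The cause of these differences was not tested. The 3 libraries per group limit the shares to a smallest exact p of 0.1, and the low counts of the interferon genes limit what can be said of them.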

Other observations

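Genes other than the members were also grouped by matches to the interferon element core in their RefSeq promoter, a grouping made after the results of the members were seen. Of 11046 genes without a match, 17.6% were higher and 23.6% lower after GLCC1 siRNA, with a median log2 fold change of -0.03. Of 419 genes with 1 match, 26.7% were higher and 20.5% lower, with a median of 0.10. Of 43 genes with 2 or more matches, 24 (55.8%) were higher and 4 (9.30%) lower, with a median of 0.57. Of the higher genes whose mean level reached 1 CPM, the 4 with the largest rise were IFI44L (log2 6.68, SE 0.45), a cytosolic interferon-induced protein gene, BST2 (log2 3.68, SE 0.21), which tethers budding viruses to the cell, HERC5 (log2 2.33, SE 0.16), the ISG15 ligase, and TCF4 (log2 2.26, SE 0.13), a basic helix-loop-helix transcription factor gene. The 4 lower genes were DAGLB (log2 -0.42), CDIPT (log2 -0.42), OAZ1 (log2 -0.50) and OR2W3 (log2 -1.63). No test was made of the difference between these groups, and genes are not independent replicates.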
